A study of Mus musculus with 2 samples.

Results

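Monocytes carrying Ly6c2 and Plac8 were picked out of 2 single-cell RNA libraries of subcutaneous Lewis lung carcinoma (LLC) tumors, a transplanted mouse lung cancer, in C57BL/6 mice. The sGC-Ctr library came from Gucy1b1 flox/flox mice and the sGC-dPC library from Cspg4-CreERT2::Gucy1b1 flox/flox mice, in which tamoxifen-induced Cre under the control of Cspg4, a pericyte gene, removes the beta 1 subunit of soluble guanylate cyclase (sGC), the nitric oxide receptor. Mice of both genotypes received 5 doses of tamoxifen from 4 weeks of age, were inoculated with LLC cells at 8 weeks and were dissected 2 weeks later, and cells of 3 tumors were pooled into 1 library per genotype. The library and the genotype therefore cannot be told apart, no test of a genotype effect was possible, and all intervals are 95% intervals of counting error only. Droplet barcodes numbered 15007 in sGC-Ctr and 25631 in sGC-dPC, with 487859656 and 436352742 unique molecular identifiers (UMIs, 1 for each RNA molecule counted) and medians of 23337 and 8019 UMIs per barcode.

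A barcode was taken as a monocyte when it held at least 1000 UMIs, mitochondrial UMIs under 10%, cancer-cell RNA (Rhox5, Krt8, Krt18 and Hmga2 together) under 0.0475% of its UMIs, Tyrobp, Fcer1g and Ctss together at 1500 CPM (UMIs of a gene scaled to a total of 1e+06 per barcode) or more, S100a8 and S100a9 together under 5000 CPM, at least 3 UMIs of Ly6c2, Plac8 and Chil3 together, C1qa, C1qb and C1qc together under 1000 CPM, and at most 2 UMIs of the proliferation genes Mki67 and Top2a. The members were thus chosen by measured UMI counts of these genes, and 953 of 40638 barcodes met all limits, 516 in sGC-Ctr and 437 in sGC-dPC. They held 3388830 and 3120081 UMIs, with medians of 6177.5 and 7149 UMIs and 2009.5 and 2202 genes per monocyte, so that their depth differed far less between libraries than that of all barcodes. The libraries shared 131 barcode sequences, and no sequence was a monocyte in both. Values are UMIs summed over the monocytes of a library and scaled to CPM, and a ratio is sGC-dPC over sGC-Ctr on the log2 scale.

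Monocytes leave the bone marrow through the chemokine receptor CCR2 and enter inflamed tissues and tumors, where many of them turn into macrophages. In mice the classical subset is marked by high Ly6C, encoded mainly by Ly6c2, whereas the patrolling, nonclassical subset is low in Ly6C and depends on Nr4a1. Tumor macrophages that come from monocytes lose Ly6C and gain complement C1q, apolipoprotein E and, in part, MHC class II.

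The nitric oxide receptor itself was all but missing from these cells. Gucy1b1, the floxed gene, had 0 UMIs in sGC-Ctr monocytes and 2 in sGC-dPC monocytes, where a count of 3 would be 0.885 and 0.962 CPM. Over all barcodes it had 80 UMIs (0.164 CPM) in sGC-Ctr and 42 (0.0963 CPM) in sGC-dPC, so the monocytes give no check of the genotype label. Its partner subunit Gucy1a1 had 4 UMIs, all in 1 sGC-Ctr barcode, and none in sGC-dPC, and Prkg1, the cGMP-dependent kinase, had 2 and 0 UMIs. Of the other genes of the pathway, the cGMP phosphodiesterase Pde5a had 7 and 8 UMIs and the endothelial nitric oxide synthase Nos3 9 and 14. The inducible synthase Nos2 was the only gene of the pathway list with 50 or more UMIs, at 19.2 CPM in sGC-Ctr and 26.9 in sGC-dPC. Cspg4, the gene whose promoter drives Cre, stood at 5 and 2 UMIs in the monocytes (1.48 and 0.641 CPM), against 54.1 and 31.8 CPM in the macrophages rich in C1q of the same libraries.

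Of the genes that define the population, Ly6c2, Plac8 and Chil3 were part of the selection, and Thbs1 and Ccr2 were named as its markers from the same data, so their levels are a description. Ly6c2 (chr15:75108158-75111970, minus strand, mm10), the Ly6C surface protein, was at 476 CPM (453 to 500) in sGC-Ctr and 399 CPM (377 to 421) in sGC-dPC. Plac8 (chr5:100553725-100572245, minus strand), a small cysteine-rich protein of immature myeloid cells, was at 2284 CPM (2234 to 2336) and 2040 CPM (1990 to 2090). Chil3 (chr3:106147554-106167564, minus strand), the secreted chitinase-like protein Ym1, was at 516 CPM (492 to 541) and 422 CPM (400 to 446). All of the selection genes were thus somewhat lower in sGC-dPC, with log2 ratios of -0.26, -0.16 and -0.29. Their near relatives were minor here: Ly6c1 had 32 and 33 UMIs, and Chil4 had 1 and 0. Ccr2 (chr9:124101950-124113557, plus strand), the receptor for CCL2 and CCL7, was at 604 CPM (578 to 631) in sGC-Ctr and 557 CPM (531 to 584) in sGC-dPC. Thbs1 (chr2:118111876-118127133, plus strand), which encodes the matricellular protein thrombospondin 1, ran the other way, at 1880 CPM (1834 to 1926) in sGC-Ctr and 2671 CPM (2614 to 2729) in sGC-dPC.

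Most of the identity signal in a single cell came from Plac8. The median monocyte held 11 Plac8 UMIs in sGC-Ctr and 10 in sGC-dPC, against 1 of Ly6c2 and 0 of Chil3 in each library. After each barcode was thinned to 2000 UMIs, which left out 17 shallower sGC-dPC monocytes and 0 in sGC-Ctr, Plac8 was seen in 86.0% of sGC-Ctr and 86.9% of sGC-dPC monocytes, Ly6c2 in 39.5% and 35.0%, and Chil3 in 30.8% and 27.4%. Without thinning the shares were 95.3% and 95.7%, 56.2% and 51.3%, and 41.9% and 38.2%. At 2000 UMIs 46.3% and 50.7% of the monocytes showed Plac8 without a UMI of Ly6c2 or Chil3, against 29.8% and 36.6% at full depth. In the C1q-high macrophages at the same depth, the shares were 3.57% and 6.51% for Plac8, 1.67% and 3.20% for Ly6c2 and 0.780% and 1.52% for Chil3, the level that free RNA and mixed droplets could also give.

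Genes that the selection did not use carried the classical monocyte pattern in both libraries. The comparison cells were the 4130 macrophages with C1q at 1000 CPM or more (1807 and 2323) and the 1132 other myeloid barcodes with low C1q and fewer than 3 UMIs of the selection genes (502 and 630). The macrophages had medians of 10680 UMIs in sGC-Ctr and 6859 in sGC-dPC. Of them, 12 and 419 held under 2000 UMIs, a depth at which few C1q UMIs meet the limit. The part of this depth in the macrophage ratios was not tested. Vcan, the large proteoglycan versican, was at 509 and 598 CPM in the monocytes and at 41.0 and 67.0 CPM in the macrophages, and Ms4a4c, a membrane protein of the MS4A family, at 427 and 453 CPM against 32.1 and 43.0 CPM. The hemoglobin scavenger haptoglobin (Hp) was at 285 and 221 CPM against 3.92 and 5.71 in the macrophages and 707 and 405 CPM in the granulocytes. Glutathione reductase (Gsr) was at 243 and 224 CPM, against 20.2 and 23.2 CPM in the macrophages. Of the 15 classical markers with 50 or more UMIs, 12 were at least 2-fold higher in the monocytes than in the macrophages in both libraries, and without the 3 selection genes and the 2 markers named from these data the count was 8 of 10. The fibronectin gene Fn1, at 972 and 1145 CPM, was higher in the macrophages (2235 and 2972 CPM). Fcnb, a marker of monocytes still close to the bone marrow, had 8 and 6 UMIs. As background to such folds, 4.35% of 10551 genes were 2-fold higher and 6.60% were 2-fold lower in the monocytes than in the macrophages in both libraries.

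**Figure D1:**
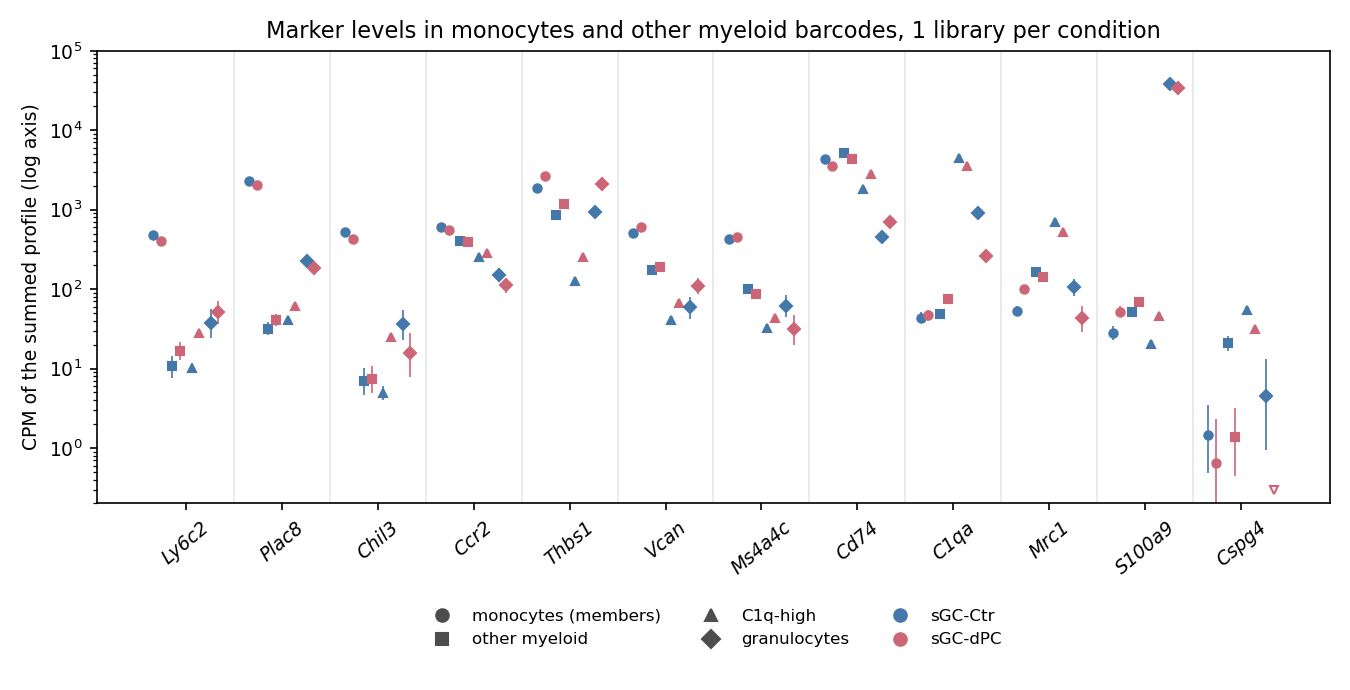
Levels of 12 genes (CPM, log axis) in the Ly6c2 Plac8 monocytes (circles), other low-C1q myeloid barcodes (squares), C1q-high macrophages (triangles) and granulocytes (diamonds), in blue for sGC-Ctr and red for sGC-dPC, with 95% Poisson intervals as bars and an open downward triangle for a count of 0. Vcan and Ms4a4c were far above the macrophages in the monocytes of both libraries (Vcan 509 and 598 against 41.0 and 67.0 CPM), and Thbs1 was higher in red than in blue in every group of cells.

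Among the genes outside the fixed list that set the monocytes most apart from the macrophages in both libraries were Slpi, a secreted inhibitor of leukocyte proteases (548 and 553 CPM against 16.8 and 18.5), the killer lectin receptor Klrd1 (103 and 76.9 CPM) and Il1r2, the decoy receptor for interleukin 1 (111 and 133 CPM against 8.04 and 8.49). Inhba, the activin A subunit, was at 68.5 CPM in sGC-Ctr and 114 CPM in sGC-dPC monocytes. In the other direction, Vsig4 and Htr2b had no UMI in the monocytes of either library, and Folr2, a folate receptor of resident macrophages, was at 5.61 and 5.13 CPM against 328 and 243 CPM.

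The limits were compared on both sides. At exactly 3 UMIs of the selection genes there were 35 and 34 monocytes, and at exactly 2 UMIs, just outside, 47 and 60 barcodes. Thbs1 was at 1573 and 2285 CPM just inside and at 2153 and 2343 CPM just outside, and Ccr2 at 667 and 529 CPM against 707 and 420. Cd74, the class II invariant chain, was at 3655 and 7597 CPM just inside and at 6374 and 5320 CPM just outside. On the C1q side, 23 and 31 monocytes lay between 500 and 1000 CPM, 8 and 18 barcodes that met the other limits lay between 1000 and 1500 CPM, and 249 and 157 monocytes had no C1q UMI at all. Across that limit Thbs1 was at 2021 and 2626 CPM inside and at 1078 and 1046 CPM outside, and Chil3 at 261 and 301 CPM inside and at 157 and 1683 CPM outside.

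Markers of other cell types were present at low levels. Summed macrophage markers were at 1442 CPM in sGC-Ctr and 1145 CPM in sGC-dPC, against 17921 and 13594 CPM in the macrophages, with Apoe as the most abundant. Granulocyte markers summed to 166 and 201 CPM, led by Mmp8, and Camp and Ngp had no UMI in either library. The NK and T cell markers, led by Klrk1, summed to 105 and 106 CPM, against 5.88 and 9.06 CPM in the macrophages. Conventional dendritic cell markers, led by Wdfy4, summed to 176 and 144 CPM, against 53.8 and 54.7 CPM. B cell markers summed to 43.1 and 32.4 CPM and endothelial and pericyte markers to 34.2 and 41.7 CPM. The plasmacytoid dendritic cell markers summed to 458 and 511 CPM, close to the 423 and 395 CPM of the macrophages. That sum was led by Bst2, which is also an interferon-stimulated gene. Of the 8 plasmacytoid markers, 6 were at least 2-fold higher in the monocytes than in the macrophages in both libraries, beside 4.35% of 10551 genes. Cancer-cell markers, held low by the selection, were at 135 and 145 CPM. Fibroblast markers differed between libraries, at 910 CPM in sGC-Ctr and 499 CPM in sGC-dPC, as did erythrocyte and platelet markers, at 335 and 197 CPM.

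Single barcodes held much of the fibroblast RNA, in both libraries. The one with the most held 2058 of 3084 UMIs of the fibroblast list in sGC-Ctr and 426 of 1557 in sGC-dPC. The sGC-Ctr barcode held 523 of the 580 UMIs of Col1a2 and 1038 of the 1677 UMIs of Col3a1, which encode collagens I and III. Without the barcode with the most UMIs in each library, the log2 ratio of Col1a2 went from -2.28 to 0.53 and that of Col3a1 from -1.07 to 0.09. Dcn, the proteoglycan decorin, ran the other way, with 229 and 433 UMIs, of which 259 of the sGC-dPC UMIs were in 1 barcode, and its ratio went from 1.04 to 0.64. In the monocytes low in MHC class II, a range set out below, the ratio of Dcn was -0.59. Hemoglobin RNA was likewise concentrated, with 219 of 273 Hbb-bs UMIs in 1 sGC-Ctr barcode, but Hbb-bs was lower in sGC-dPC macrophages too (45.1 against 1.13 CPM). Barcodes with 10 or more UMIs of any 1 list of dendritic, lymphoid, fibroblast, vascular or erythrocyte and platelet markers numbered 33 and 26 (6.40% and 5.95% of the monocytes). That count leaves out Bst2, Tcf4, Runx2 and Pf4. Macrophage markers, also not in it, reached 10 UMIs in 135 and 108 monocytes (26.2% and 24.7%), and granulocyte markers in 5 and 7.

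Nonclassical monocyte markers summed to 822 and 793 CPM, against 631 and 589 CPM in the macrophages, and 5 of 10 were at least 2-fold higher than there in both libraries. Nr4a1, the transcription factor they depend on, which is also an immediate early gene, was at 323 and 312 CPM, and Cx3cr1, the fractalkine receptor, at 109 and 107 CPM. Ace was at 40.4 and 42.0 CPM, against 1.52 and 1.39 CPM in the macrophages, Spn (CD43) at 39.8 and 49.0 CPM, and Treml4 at 21.8 and 17.0 CPM. At 2000 UMIs per barcode, 43.6% of sGC-Ctr and 35.2% of sGC-dPC monocytes had 2 or more UMIs of the nonclassical list (76.4% and 67.7% at full depth). For 6 of its genes alone (Ace, Treml4, Spn, Eno3, Cd300e and Pglyrp1), chosen with these data known, the shares were 7.75% and 7.38% (22.3% and 19.9% at full depth).

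The monocytes made up a smaller share of the myeloid barcodes in sGC-dPC. They were 516 of 3429 myeloid barcodes in sGC-Ctr, or 15.0% (exact binomial interval 13.9 to 16.3), and 437 of 3919 in sGC-dPC, or 11.2% (10.2 to 12.2), a log2 ratio of -0.43 (-0.62 to -0.25). C1q-high macrophages were 52.7% and 59.3% of the same barcodes, and 62.4% and 64.4% after thinning to 2000 UMIs. The myeloid barcodes had medians of 9164 UMIs in sGC-Ctr and 6382 in sGC-dPC. Because 3 UMIs are easier to reach in a deep barcode, the monocyte share was also taken after thinning to 2000 UMIs. This gave 11.3% (10.1 to 12.6) and 9.53% (8.40 to 10.8) and a log2 ratio of -0.25 (-0.50 to 0.01), an interval that reached 0. Over the other definitions of the monocytes the log2 ratio lay between -0.82 and -0.28. Barcodes that met the other limits but had C1q at 1000 CPM or more numbered 70 in sGC-Ctr and 142 in sGC-dPC. They were not counted as monocytes, and their part in the lower share was not tested. Fewer monocytes, a different recovery of cells in 1 of the preparations and a lower level of the selection genes cannot be told apart from these shares.

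**Figure D2:**
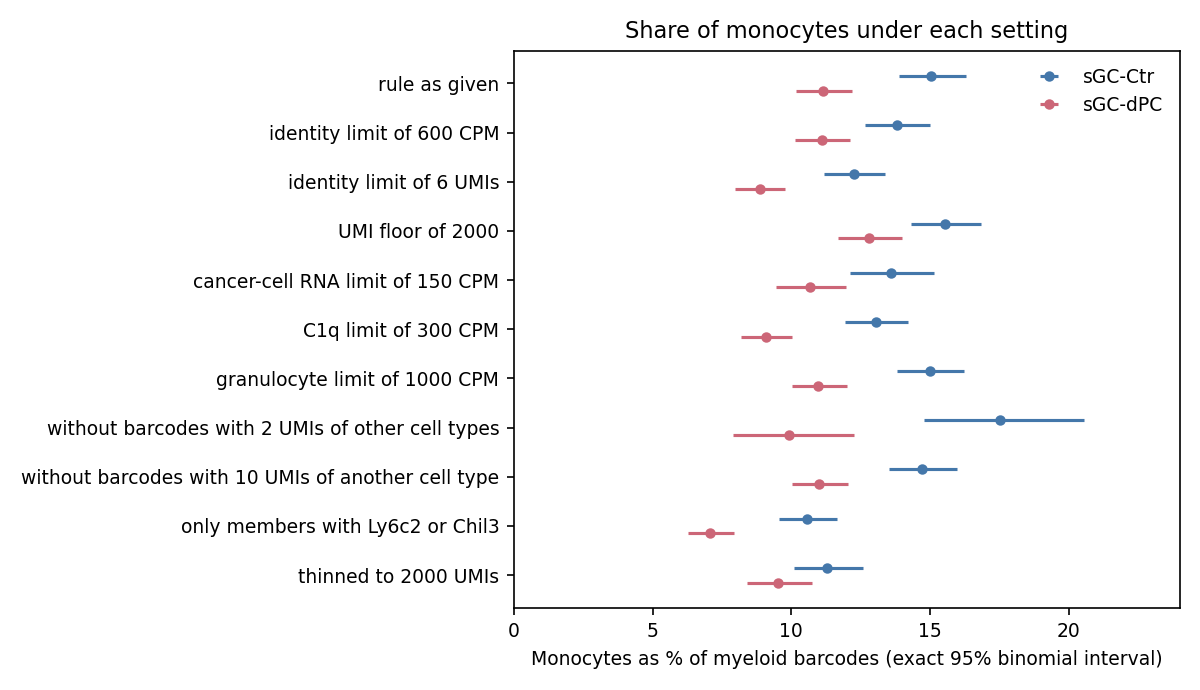
Monocytes as a percentage of myeloid barcodes in sGC-Ctr (blue) and sGC-dPC (red) under 11 settings of the selection, with exact 95% binomial intervals. The share was lower in sGC-dPC under each setting, and the gap was smallest after thinning to 2000 UMIs (11.3% and 9.53%).

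Gene expression of the monocytes was close between the libraries. Over the 7999 genes for which the monocytes of the libraries gave 50 UMIs or more between them, 33 (0.413%) were more than 2-fold higher in sGC-dPC and 48 (0.600%) were more than 2-fold lower, with a pseudocount of 0.5 UMI. The median log2 ratio was -0.003, and 94.2% of the genes were within 1.5-fold. The macrophages, with more UMIs and 11491 such genes, had 0.835% higher and 0.383% lower. Among the 1770 genes with 500 or more UMIs, 7 were past 2-fold. Single barcodes weighed on the genes past 2-fold: in 6 of the 33 higher and 25 of the 48 lower genes, at least 50% of the UMIs of the higher library came from 1 barcode. More genes were higher than lower under some other settings. The counts were 51 higher and 24 lower with a limit of 600 CPM for the selection genes. In the monocytes high in MHC class II they were 58 and 15.

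The genes past 2-fold included some in which no single barcode held most of the UMIs. F3, the coagulation initiator tissue factor, had 13 UMIs in 12 sGC-Ctr monocytes (3.84 CPM) and 42 UMIs in 35 sGC-dPC monocytes (13.5 CPM), a log2 ratio of 1.81 (0.89 to 2.83), which turned to -0.21 without barcodes holding 2 UMIs of other cell types, a setting that left 718810 and 416852 UMIs. Cd36, a scavenger and fatty acid receptor, was at 7.08 CPM in sGC-Ctr and 25.0 CPM in sGC-dPC (1.82, 1.14 to 2.54), and its ratio in the macrophages was 0.23. The ratio of Cd36 was 0.90 in that same reduced set. Mmp3, the stromelysin 1 protease made mostly by stromal cells, was at 14.8 and 36.5 CPM (1.31, 0.82 to 1.82), beside 13.2 and 40.1 CPM in the macrophages, and its ratio was also above 1 in the other myeloid barcodes (1.85) and the granulocytes (1.62). On the lower side, Slamf9, a receptor of the SLAM family, was at 26.0 CPM in sGC-Ctr and 9.94 CPM in sGC-dPC, and the scaffold gene Mpp7 at 48.7 and 21.2 CPM. Both were below 0 in the macrophages, the other myeloid barcodes and the granulocytes too. The ratios there were -0.28, -0.11 and -1.65 for Slamf9 and -0.42, -0.75 and -1.04 for Mpp7.

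The largest ratios of all were those of rare or unevenly spread genes. Ccl24, an eosinophil-attracting chemokine, had 12 UMIs in 9 sGC-Ctr monocytes and 126 UMIs in 13 sGC-dPC monocytes, of which 1 barcode held 82, and its ratio was 0.29 after thinning. Saa3, an acute-phase protein, was at 47.5 CPM in sGC-Ctr and 5.13 CPM in sGC-dPC, with 90 of its 161 sGC-Ctr UMIs in 1 barcode. In the monocytes high in MHC class II the ratio of Saa3 turned to 2.31. The T cell receptor gene Trbc2 had 14 and 51 UMIs in 4 and 9 monocytes, and a ratio of 0.51 in those high in MHC class II. Ccr7, a marker of migrating dendritic cells, had 81 UMIs in 12 sGC-Ctr monocytes and 20 in 6 sGC-dPC monocytes. Of its sGC-Ctr UMIs, 43.2% were in 1 barcode. The ratio of Ccr7 went from -1.90 to 0.29 with cancer-cell RNA under 150 CPM. Without the barcode with the most UMIs in each library, these genes stayed past 2-fold. Their ratios were then 2.34 for Ccl24, -2.09 for Saa3, 1.82 for Trbc2 and -2.03 for Ccr7. The ratio of Saa3 was -3.13 in the granulocytes, 0.80 in the macrophages and 0.80 in the other low-C1q barcodes.

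A shift seen in each compared group of myeloid barcodes ran through the monocytes as well. Gm42418, a transcript that overlaps a ribosomal RNA repeat, was at 15548 CPM in sGC-Ctr and 31371 CPM in sGC-dPC (log2 ratio 1.01). Its ratio was 1.19 in the macrophages, 1.40 in the other low-C1q myeloid barcodes and 1.15 in the granulocytes. Lars2, the mitochondrial leucyl-tRNA synthetase gene, was at 449 and 958 CPM (1.10), beside ratios of 1.10, 1.35 and 1.21 in the same groups of cells and 0.88 in the monocytes high in MHC class II. Whether this shift has a part in the other ratios was not tested.

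**Figure D3:**
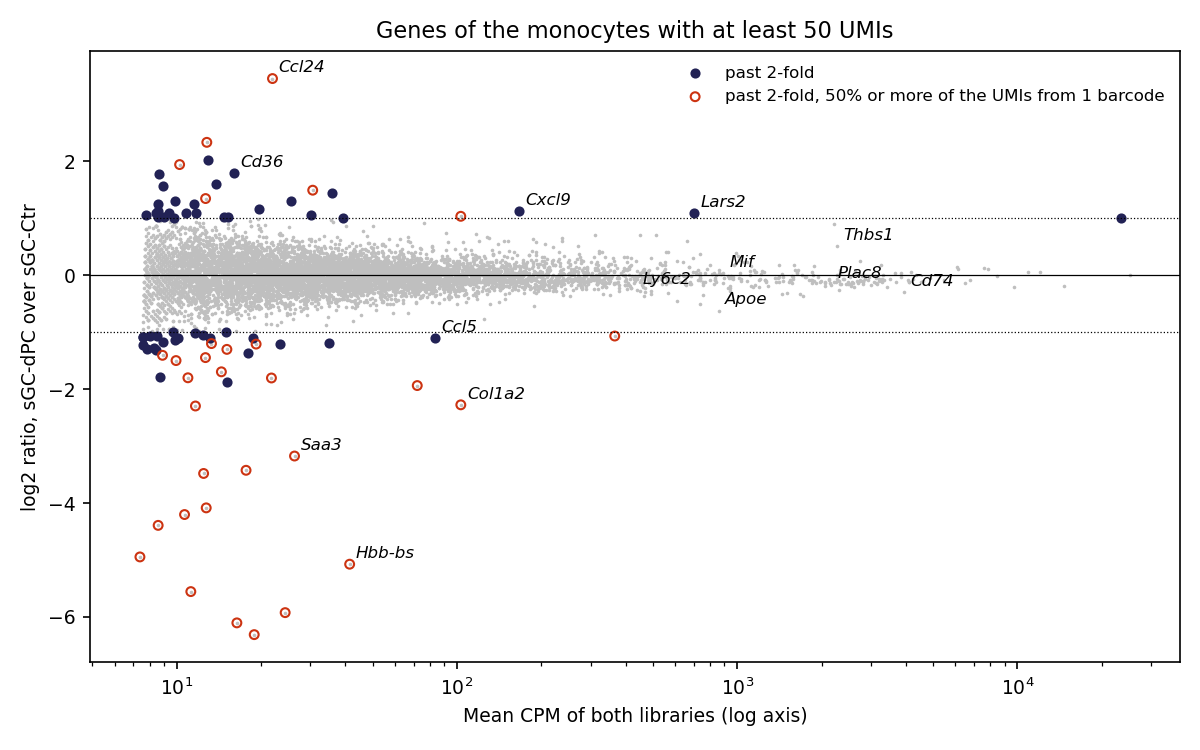
Log2 ratio of sGC-dPC over sGC-Ctr in the monocytes (y axis) against the mean level in CPM (x axis, log scale) for 7999 genes in grey, with those past 2-fold as dark dots and an open red circle around those with at least 50% of the UMIs of the higher library in 1 barcode. Most genes lie near 0 (median -0.003), and many of the far points are ringed, such as Col1a2 and Hbb-bs.

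Genes were then read by role, in lists in which a gene counted when it had 50 or more UMIs. Each list was set beside the background shares of 0.413% higher and 0.600% lower and the median of -0.003 over all 7999 genes. A gene more than 2-fold higher or lower was found in 6 of the 19 lists drawn in the plot of ratios by role.

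**Figure D4:**
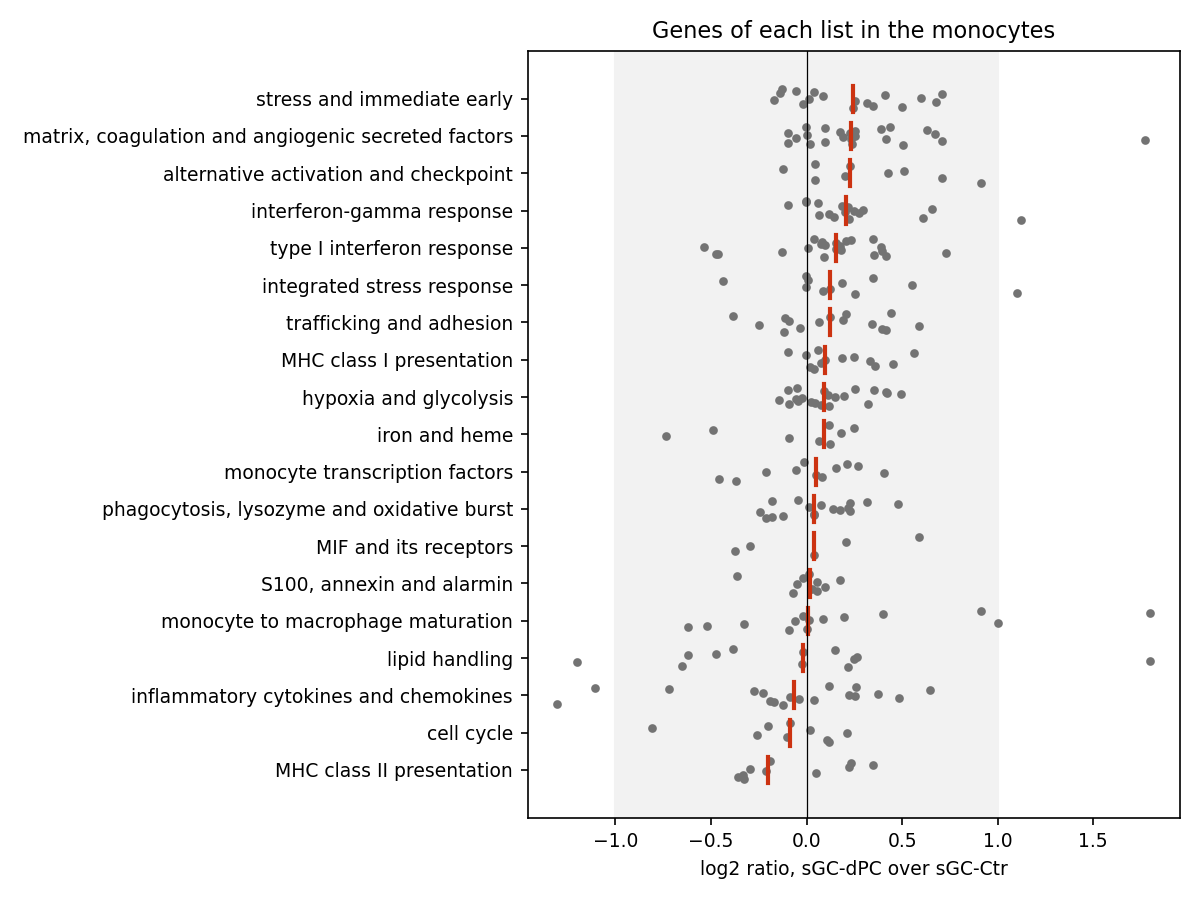
Log2 ratio of sGC-dPC over sGC-Ctr in the monocytes for each gene with 50 or more UMIs in 19 lists, 1 dot per gene, with a red line at the list median and a grey band for ratios within 2-fold. Medians ran from -0.20 (MHC class II presentation) to 0.24 (stress and immediate early genes), and few dots left the band.

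Among trafficking and adhesion genes, none of 15 was past 2-fold in either direction and the median was 0.12. Ccr1, a receptor for CCL3 and CCL5, was at 282 CPM in sGC-Ctr and 377 CPM in sGC-dPC (0.42, 0.29 to 0.54). Cxcr4, the receptor for CXCL12 and a partner of MIF, was at 74.4 and 112 CPM (0.59, 0.35 to 0.83). In the macrophages these ratios were 0.13 and 0.34. The integrin subunits Itgam and Itgb2 were at 504 and 575 CPM and at 356 and 387 CPM, and Itga4 was lower in sGC-dPC, at 107 and 82.4 CPM. The cytokine MIF, at 878 and 900 CPM, differed little (0.04, -0.04 to 0.11), its homolog Ddt was at 79.7 and 61.5 CPM (-0.37), and none of the 5 genes of the MIF list was past 2-fold (median 0.04).

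Transcription factors of the lineage were also within 2-fold, 11 of 11 (median 0.05). Spi1, which encodes PU.1, was at 524 CPM in sGC-Ctr and 406 CPM in sGC-dPC (-0.37, -0.47 to -0.26), with a ratio of -0.28 in the macrophages. Klf4, a regulator of monocyte differentiation, was at 199 and 264 CPM (0.41), and Cebpb at 1188 and 1256 CPM. Irf8, a regulator of monocyte and dendritic cell fate, was at 178 and 184 CPM.

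Maturation genes split in direction, with 2 of 14 (Cd36 and Gpnmb) more than 2-fold higher, none lower and a median of 0.01. Apoe was at 1041 CPM in sGC-Ctr and 678 CPM in sGC-dPC monocytes (-0.62, -0.70 to -0.54), beside 3866 and 2341 CPM (-0.72) in the macrophages. Ms4a7 was at 60.8 and 42.3 CPM (-0.52), beside a ratio of -0.49. Mrc1 (chr2:14229392-14332057, plus strand), the mannose receptor, was at 53.1 CPM (45.6 to 61.5) in sGC-Ctr and 100 CPM (89.2 to 112) in sGC-dPC (0.91, 0.64 to 1.19), whereas in the macrophages it was at 696 and 519 CPM (-0.42). Gpnmb, a glycoprotein of lipid-loaded macrophages, was at 26.0 and 52.2 CPM (1.01, 0.63 to 1.40), with 40 of 163 sGC-dPC UMIs in 1 barcode, a ratio of 0.81 without it and one of -0.66 in the monocytes high in MHC class II. The cathepsin Ctsl was at 482 and 637 CPM (0.40). Csf1r, the receptor that keeps macrophages alive, was at 286 and 268 CPM, and the macrophage markers Mertk (10 and 11 UMIs) and Cd5l (0 UMIs) were near or at 0.

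Inflammatory cytokines and chemokines were abundant in the monocytes of both libraries, with 2 of 18 (Il1a and Ccl5) more than 2-fold lower in sGC-dPC, none higher and a median of -0.06. That median turned to 0.27 with cancer-cell RNA under 150 CPM and to 0.26 in the monocytes high in MHC class II. Cxcl2, which attracts neutrophils, was at 2496 CPM in sGC-Ctr and 2975 CPM in sGC-dPC (0.25, 0.21 to 0.30), and was seen in 39.3% and 52.6% of monocytes at 2000 UMIs (49.4% and 67.7% at full depth). At 2000 UMIs Cxcl2 was also seen in 33.5% and 45.2% of the macrophages and in 92.3% and 97.8% of the granulocytes. Il1b was at 2049 and 1884 CPM (-0.12), against 259 and 375 CPM in the macrophages. Ccl2 and Ccl7, the ligands of CCR2, were at 237 and 307 CPM (0.37, 0.24 to 0.51) and at 48.7 and 76.3 CPM (0.65, 0.36 to 0.94), with ratios of -0.03 and -0.39 in the macrophages. Ccl5, a lymphocyte-attracting chemokine, was at 114 CPM in 29 sGC-Ctr monocytes and 52.9 CPM in 22 sGC-dPC monocytes (-1.11, -1.38 to -0.84), while its ratio in the macrophages was 0.91. Of its sGC-Ctr UMIs, 134 of 386 were in 1 barcode. The ratio in the monocytes was -0.94 without the barcode with the most UMIs in each library and -0.27 without barcodes holding 10 UMIs of another cell type, both within 2-fold and both settings chosen after seeing the data. Il1a had 41 and 15 UMIs (-1.33, -2.29 to -0.45), and its ratio was -0.57 with a limit of 600 CPM for the selection genes.

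Genes of alternative activation and immune checkpoints had 8 of 9 tested members above 0 in sGC-dPC over sGC-Ctr, with a median of 0.23 and none past 2-fold. That median was 0.020 without barcodes holding 2 UMIs of other cell types. Cd274, the PD-L1 gene, was at 67.3 and 95.8 CPM (0.51, 0.26 to 0.77), beside 0.70 in the macrophages. The interleukin 1 receptor antagonist Il1rn was at 159 and 213 CPM (0.42). The inhibitory receptor Lilrb4a was at 591 and 693 CPM, Vsir at 210 and 193 CPM, and Cd163 and Il10 were at 8 UMIs or fewer in each library.

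Secreted matrix, coagulation and angiogenic factors also leaned upward, 19 of 23 above 0, with a median of 0.23 and F3 as the gene past 2-fold. Thbs1 was the most abundant of them. The median monocyte held 5 Thbs1 UMIs in sGC-Ctr and 10 in sGC-dPC, and at 2000 UMIs the gene was seen in 61.8% (57.5 to 66.0) and 74.3% (69.8 to 78.4) of monocytes, against 69.2% and 79.2% at full depth and 12.98% and 21.7% of the macrophages at 2000 UMIs. Its log2 ratio was 0.51 (0.46 to 0.55) in the monocytes, 1.02 in the macrophages, 0.45 in the other low-C1q barcodes and 1.15 in the granulocytes, so it was higher in sGC-dPC in each of these groups of cells. Spp1, which encodes osteopontin, was at 856 and 1120 CPM (0.39), and Vegfa, the endothelial growth factor, at 164 and 218 CPM (0.41, 0.25 to 0.58), with ratios of 0.25 and 0.68 in the macrophages. Mmp19 was at 51.3 and 82.0 CPM (0.68). The coagulation genes F10 (410 and 384 CPM) and F13a1 (325 and 330 CPM) differed by less.

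Interferon-stimulated genes were expressed in the monocytes of both libraries. Type I interferons act through the transcription factor complex ISGF3, which binds an element made of 2 GAAA repeats. The sum of the type I list was 3595 CPM in sGC-Ctr and 3890 CPM in sGC-dPC, against 1075 and 1071 CPM in the macrophages and 3071 and 3212 CPM in the granulocytes. At 2000 UMIs per barcode, Isg15 was seen in 20.3% and 24.8% of monocytes and in 41.3% and 40.8% of granulocytes. Of the 22 genes, 16 were at least 2-fold higher in the monocytes than in the macrophages in both libraries. Between the libraries, 18 of the 22 were above 0 and 4 below, none was past 2-fold, and the median was 0.16. The direction of that median turned to -0.10 in the monocytes high in MHC class II.

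Promoters of 4 of these genes are printed to show the element, as the 200 bases before the start of the gene in RefSeq (GRCm38.p6). Capitals mark each match to GAAANNGAAA, or TTTCNNTTTC on the other strand, with overlapping matches run together. Isg15 lies at chr4:156200819-156201018 (minus strand), Rsad2 at chr12:26456453-26456652 (minus strand), Ifit1 at chr19:34640689-34640888 (plus strand) and Ifit3 at chr19:34583329-34583528 (plus strand).
Isg15: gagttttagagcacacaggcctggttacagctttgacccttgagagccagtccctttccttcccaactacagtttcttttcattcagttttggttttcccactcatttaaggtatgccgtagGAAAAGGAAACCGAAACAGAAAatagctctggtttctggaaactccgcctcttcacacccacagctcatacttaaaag
Rsad2: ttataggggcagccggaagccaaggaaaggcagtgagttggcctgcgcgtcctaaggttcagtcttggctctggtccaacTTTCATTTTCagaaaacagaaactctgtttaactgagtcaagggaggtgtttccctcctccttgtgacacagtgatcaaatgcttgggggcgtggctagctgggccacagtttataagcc
Ifit1: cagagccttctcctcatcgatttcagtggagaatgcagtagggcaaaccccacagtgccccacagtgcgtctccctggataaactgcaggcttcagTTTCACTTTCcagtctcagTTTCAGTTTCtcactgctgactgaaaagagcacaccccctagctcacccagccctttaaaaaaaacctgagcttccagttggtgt
Ifit3: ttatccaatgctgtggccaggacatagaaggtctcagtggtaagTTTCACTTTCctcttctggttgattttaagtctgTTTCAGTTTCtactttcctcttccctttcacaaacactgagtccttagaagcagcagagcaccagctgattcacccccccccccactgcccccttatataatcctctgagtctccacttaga

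Isg15 held 3 overlapping matches, Rsad2 held 1 and Ifit1 and Ifit3 held 2 each. In windows from 250 bases before to 50 bases after the start, 10 of the 18 type I genes with a RefSeq promoter (55.6%) had a match on either strand, against 1079 of 27025 promoters in all (3.99%). A match describes the letters of the window and not a bound site.

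Of the 10 type I genes with a match to the element, those given here did not move as 1 block between the libraries. Isg15, a ubiquitin-like protein, was at 309 CPM in sGC-Ctr and 329 CPM in sGC-dPC (0.09, -0.03 to 0.22). Rsad2, the antiviral enzyme viperin, was at 87.9 and 146 CPM (0.73, 0.52 to 0.95), with 92 of 456 sGC-dPC UMIs in 1 barcode and a ratio of 0.54 without it. Ifit1 was at 39.8 and 51.0 CPM (0.36), a ratio that became -0.03 without the top barcodes. Ifit3, which like Ifit1 helps to hold back viral RNA, was at 40.7 and 29.5 CPM (-0.47, -0.86 to -0.07). Cxcl10, a T cell chemokine whose promoter also has a match, was at 223 and 154 CPM (-0.54), with 158 of 757 sGC-Ctr UMIs in 1 barcode. Over the whole type I list, the 10% of monocytes with the most UMIs held 44.9% of them in sGC-Ctr and 38.6% in sGC-dPC, and the median monocyte was at 2114 and 2763 CPM. A set of 8 of its genes (Isg15, Ifit1, Ifit2, Ifit3, Rsad2, Irf7, Oasl2 and Usp18), chosen with these data known, was less evenly spread, with 73.9% and 70.1% of its UMIs in the top 10% of monocytes. At 2000 UMIs, 7.95% and 8.10% of monocytes had 5 or more UMIs of those 8 genes (18.02% and 22.2% at full depth).

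Of the 18 interferon-gamma genes, 15 were above 0 and 3 below, with a median of 0.21 and Cxcl9 as the gene past 2-fold. That median was 0.67 without barcodes holding 2 UMIs of other cell types. Cxcl9 (chr5:92321347-92328079, minus strand), the chemokine that draws CXCR3-bearing T cells, was at 104 CPM (93.9 to 116) in sGC-Ctr and 228 CPM (211 to 245) in sGC-dPC (1.13, 0.94 to 1.31). It came from 27 and 48 monocytes, and the barcodes with the most held 96 of 354 and 159 of 711 UMIs, without which the ratio was 1.22. The ratio lay between 0.58, in the monocytes low in MHC class II, and 3.17 over the alternatives, and under some it was within 2-fold. In the macrophages Cxcl9 was at 241 and 284 CPM (0.24). Psmb8, an immunoproteasome subunit, was at 503 and 471 CPM and the receptor Ifngr1 at 230 and 229 CPM. The 13 MHC class I genes were all within 2-fold (median 0.10), with B2m at 1587 and 1699 CPM and H2-D1 at 1206 and 1222 CPM.

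Of the 10 MHC class II genes, which present antigen to CD4 T cells, 6 were below 0 and 4 above 0 in the monocytes, none was past 2-fold, and the median was -0.20. Their sum in the monocytes was 10520 CPM in sGC-Ctr and 8612 CPM in sGC-dPC, in the macrophages 4235 and 6473 CPM, and in the other low-C1q myeloid barcodes, where it was lower in sGC-dPC too, 12877 and 11162 CPM. Cd74, the invariant chain, was at 4346 and 3542 CPM (-0.30, -0.33 to -0.26) in the monocytes, with a ratio of 0.60 (0.58 to 0.61) in the macrophages. H2-Ab1, a class II beta chain, was at 1935 and 1507 CPM (-0.36, -0.42 to -0.31), with a ratio of 0.66 (0.63 to 0.69) in the macrophages. H2-Aa (1865 and 1487 CPM) and H2-Eb1 (1605 and 1277 CPM) had the same pattern. Among the 4 above 0 was the costimulatory gene Cd86, at 130 and 165 CPM (0.35, 0.16 to 0.53).

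MHC class II also varied widely among the monocytes themselves. The median monocyte had a summed level of H2-Aa, H2-Ab1, H2-Eb1 and Cd74 of 410 CPM in sGC-Ctr and 560 CPM in sGC-dPC, and the top 10% of monocytes held 65.5% and 67.9% of the class II UMIs. At 2000 CPM or more lay 174 of 516 sGC-Ctr monocytes (33.7%) and 152 of 437 sGC-dPC monocytes (34.8%), with 60 and 64 monocytes near that limit, between 1000 and 4000 CPM. The high range was drawn with a limit on 1 measure and is given no cell type name. Monocytes without any class II UMI were 27.1% and 17.4%.

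Values within each range are a description, since the ranges were set on the same genes. In the high range, Cd74 was at 11412 CPM in sGC-Ctr and 8399 CPM in sGC-dPC, and H2-Aa at 5048 and 3663 CPM. In the low range, H2-Aa was at 14.9 and 26.2 CPM, and the median ratio of the class II list was 0.23.

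**Figure D5:**
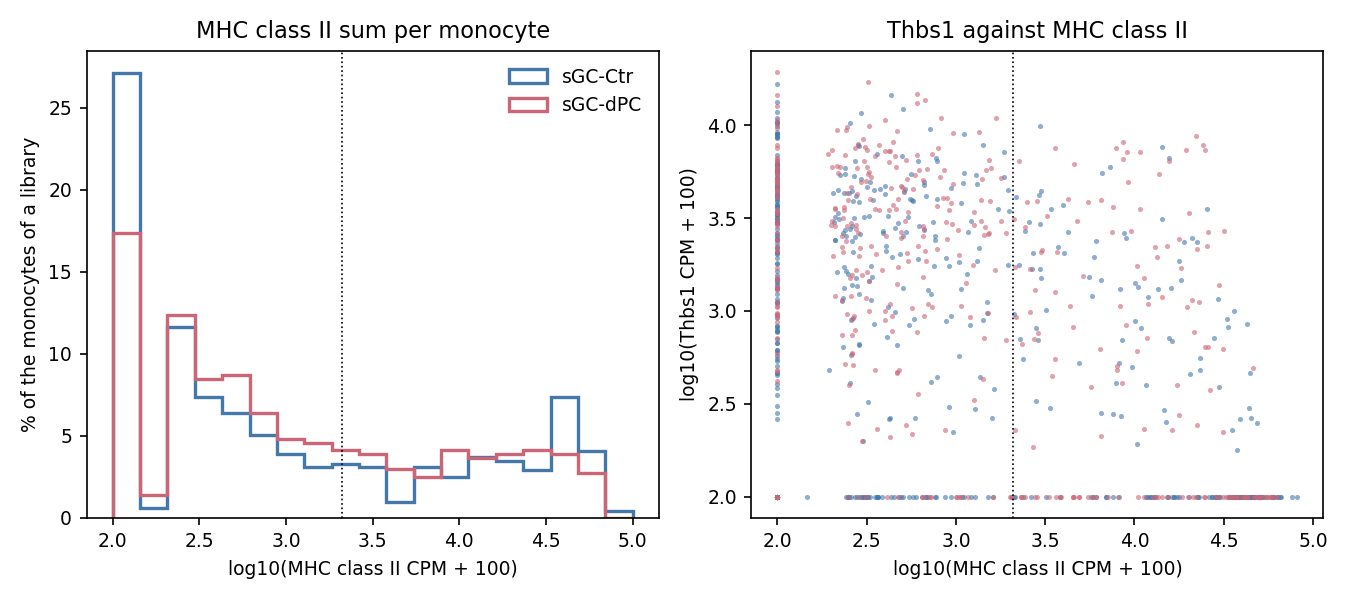
Left, percentage of monocytes in each library (blue sGC-Ctr, red sGC-dPC) by MHC class II level, as log10 of the summed CPM plus 100; right, log10 of Thbs1 CPM plus 100 against the same class II level, 1 dot per monocyte. The dotted line is the limit of 2000 CPM, above which lay 33.7% and 34.8% of the monocytes, with Thbs1 lower there in both libraries.

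Of 15 classical markers, 7 were at least 2-fold lower in the high range than in the low range in both libraries, and without the selection genes, Thbs1 and Ccr2 the count was 4 of 10. As background, 1.45% of 5730 genes were at least 2-fold higher and 1.05% at least 2-fold lower in the high than in the low range in both libraries. Ly6c2 was at 266 CPM in the high and 598 CPM in the low range of sGC-Ctr, and at 180 and 545 CPM in sGC-dPC. Chil3 was at 124 and 744 CPM in sGC-Ctr and at 110 and 632 CPM in sGC-dPC. Vcan, Hp, Gsr and Thbs1 followed the same order, with Thbs1 at 721 CPM in the high and 2553 CPM in the low range of sGC-Ctr and at 1380 and 3539 CPM in sGC-dPC. Plac8 (2014 and 2442 CPM in sGC-Ctr) and Il1b (1985 and 2087 CPM) differed less between the ranges. Slpi and Cd177, a surface protein of neutrophils, were also lower in the high range, with Slpi at 89.1 and 814 CPM in sGC-Ctr.

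Genes that stood highest in the class II range included markers of dendritic and lymphoid cells. Ciita, the master regulator of class II, was at 160 CPM in the high and 3.27 CPM in the low range of sGC-Ctr, and at 172 and 3.21 CPM in sGC-dPC. The lectin Cd209a, carried by dendritic cells derived from monocytes, was at 100 and 3.27 CPM in sGC-Ctr and at 87.8 and 1.07 CPM in sGC-dPC. Klrd1 was at 246 and 20.5 CPM and at 173 and 12.3 CPM. Siglech, a marker of plasmacytoid dendritic cells, was at 54.6 and 7.00 CPM and at 44.7 and 5.89 CPM. Cxcl9 also lay mostly in the high range, at 213 CPM there in sGC-Ctr and 474.8 CPM in sGC-dPC, against 41.5 and 62.1 CPM in the low range. A UMI of the conventional dendritic cell list was seen in 50.0% and 46.7% of barcodes of the high range and in 24.3% and 22.1% of the low range. Summed classical markers of the median cell were at 5794 and 6273 CPM in the high range and at 11525 and 11551 CPM in the low range. Without the selection genes, Thbs1 and Ccr2, those sums were at 2118 and 2317 CPM in the high range and at 4264 and 4444 CPM in the low range.

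Of 17 stress and immediate early genes, 12 were above 0 and 5 below, none was past 2-fold, and the median was 0.24. That median was 0.044 with 6 UMIs of the selection genes required, 0.11 in the monocytes low in MHC class II and 0.14 after thinning. Dusp1, a phosphatase of MAP kinases, was at 528 CPM in sGC-Ctr and 798 CPM in sGC-dPC (0.60, 0.51 to 0.69), and Egr1 at 98.6 and 158 CPM (0.68, 0.47 to 0.88). These genes also respond to tissue digestion, and their ratios in the macrophages were 0.72 and 0.65. The heat shock genes Hspa1a (484 and 644 CPM, 0.41) and Hspa1b (237 and 387 CPM, 0.71) ran against the macrophages, where the ratios were -0.43 and -0.28. Ier3 and Junb were close between libraries, at 2252 and 2273 CPM and at 1574 and 1557 CPM. Of the 11 genes of the integrated stress response, Asns, the asparagine synthetase, was past 2-fold (7.38 and 16.0 CPM, 1.12, 0.40 to 1.87, and 0.78 with cancer-cell RNA under 150 CPM), and Atf4 was at 199 and 237 CPM.

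Metabolic and effector lists had medians between -0.09 and 0.09, with 2 of the 12 lipid genes past 2-fold in opposite directions. The 21 hypoxia and glycolysis genes were all within 2-fold (median 0.09), with Gapdh at 3775 and 3899 CPM, Ldha at 974 and 957 CPM and the hypoxia gene Ndrg1 at 131 and 175 CPM (0.42). The 17 genes of phagocytosis and oxidative burst had a median of 0.04, with lysozyme (Lyz2) at 10420 and 8985 CPM (-0.21) and the lectin Clec4d at 361 and 449 CPM (0.32). The 10 genes of the S100 and annexin list had a median of 0.02, with S100a6 at 4090 and 4242 CPM. Iron genes were led by the ferritin chains Fth1 (10643 and 11127 CPM) and Ftl1 (4737 and 4442 CPM), none of 8 was past 2-fold, and the median was 0.09. In the lipid list, Cd36 was past 2-fold upward and the lipoprotein lipase gene Lpl downward, at 18.6 and 8.01 CPM with 33 of 63 sGC-Ctr UMIs in 1 barcode and a ratio of 1.25 in the monocytes high in MHC class II, and the median of 12 genes was -0.02. Cell cycle genes, 2 of which the selection limited, were all within 2-fold (9 genes, median -0.09).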

How the data were processed

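The UMI counts were deposited by the authors as 1 matrix per library, made with Cell Ranger 6.1.1 on mm10 from a 10x 3' library of enzymatically digested tumors after erythrocyte lysis, and were used as whole numbers without normalization. No column of values was left unused (0). The rule of the opening was applied to every barcode, and monocytes were compared with C1q-high macrophages, other low-C1q myeloid barcodes and granulocytes (S100a8 and S100a9 at 5000 CPM or more). The barcodes kept by the authors' quality control were not used here. Members and gene lists were chosen with earlier results of these data known.

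UMIs were summed per library and scaled to CPM, with exact Poisson intervals. Ratios of named genes have exact conditional intervals and shares have Clopper-Pearson intervals. Ratios over all genes and list medians used a pseudocount of 0.5 and genes with 50 UMIs or more. With 1 library of 3 pooled tumors per condition, no model was fitted and no p-value is given. The named genes are those followed through the alternative settings, and some, such as Ifi27l2a, Lgals3, Gm34455, Clu and Plk2, have no value in the text. They are the markers, the rule's genes, markers of other cells and the members of the functional lists with the most UMIs or past 2-fold. They also include the 10 widest ratios each way among genes with 100 UMIs or more. Other members of the lists, Slpi, Il1r2, Inhba, Klrd1, Vsig4, Htr2b, Mmp3, Slamf9, Mpp7, Gm42418, Lars2 and the genes of the class II ranges were chosen after their values were seen. Mx1, Aldoa, Ddit3 and Clec7a were not analysed here. Most list members have no value of their own in the text and enter the counts, sums and medians. Coordinates printed come from GENCODE vM21 (mm10), and promoters from RefSeq. Python 3.11.15, numpy 2.4.6, scipy 1.17.1, pandas 2.3.3, scanpy 1.11.5 and matplotlib 3.10.9 were used, and the computations were tested on simulated data. Scrublet, in scanpy, marked 509 of 12281 barcodes (4.14%) in sGC-Ctr and 0 of 21082 in sGC-dPC, where it did not work, and none of the monocytes, so no doublets were removed.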

Additional observations from a re-analysis of the deposited data

Results flagged for a closer look

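For 9 of the 133 genes named by the rule with 50 or more UMIs in both kinds of cell, the ratio of sGC-dPC over sGC-Ctr had opposite signs in the monocytes and in the C1q-high macrophages, with counting intervals that left out 0 in both and ratios at least 2-fold apart, which Cd74 (-0.30 and 0.60) was not. Over all 7935 genes with such counts, 24 met the same limits, among them Ednrb (2.38 and -0.95, with 56.7% of its sGC-dPC UMIs in 1 monocyte barcode and 1.75 without the top barcodes), Plet1 (-1.82 and 1.78) and Ccl7 (0.65 and -0.39), picked after their values were seen. Some named genes were chosen for a wide ratio in the monocytes, so the share among them is not comparable with that over all genes. With 1 library per condition, the difference between the cells was not tested. The mannose receptor gene Mrc1 had a log2 ratio of 0.91 in the monocytes and -0.42 in the macrophages, Gpnmb 1.01 and -0.48, and Pf4, a chemokine of platelets and macrophages, 0.60 and -0.46, with the monocyte value of Pf4 at -1.88 without barcodes holding 2 UMIs of other cell types and 2.46 after thinning. The chemokine gene Ccl5 ran the other way, at -1.11 in the monocytes and 0.91 in the macrophages, and the monocyte value was -0.27 without barcodes holding 10 UMIs of another cell type. The class II genes shared that pattern, with H2-Ab1 at -0.36 and 0.66, H2-Aa at -0.33 and 0.69 and H2-Eb1 at -0.33 and 0.68. In the monocytes low in MHC class II, the ratios of H2-Ab1, H2-Aa and H2-Eb1 were 0.73, 0.81 and 0.024. Lpl, at -1.21 and 0.25, and Saa3, at -3.21 and 0.80, each had more than 50% of their sGC-Ctr monocyte UMIs in 1 barcode. In the monocytes high in MHC class II, the ratios of Lpl and Saa3 turned to 1.25 and 2.31.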

How the results depend on the processing

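No paired analysis was possible because each condition has 1 library, and no replicate could be left out. Removal of doublets gave no value of its own, since no monocyte was marked in sGC-Ctr and the call did not work in sGC-dPC. Of 424 alternative values of counts, shares and list medians, 379 stayed close to those reported, 45 moved and 0 turned in sign with a call; of 2516 for named genes, 1970 stayed close, 497 moved and 49 turned in sign for a gene past 2-fold. Counting every gene, also those with ratios near 0, 327 of the 2516 values, in 106 of 160 genes, had the other sign. The cause of each move was not tested. The log2 ratio of the monocyte share, -0.43, was -0.31 with a limit of 600 CPM for the selection genes, -0.47 with 6 UMIs, -0.28 with a floor of 2000 UMIs, -0.35 with cancer-cell RNA under 150 CPM, -0.52 with C1q under 300 CPM, -0.45 with S100a8 and S100a9 under 1000 CPM, -0.82 without barcodes holding 2 UMIs of other cell types (718810 and 416852 UMIs left) and -0.25 after thinning. In alternatives chosen after seeing the data, it was -0.42 without barcodes holding 10 UMIs of another cell type and -0.58 with a UMI of Ly6c2 or Chil3 required.

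The counts of genes past 2-fold, 33 higher and 48 lower of 7999, depend on how many genes each setting tested. They were 51 and 24 of 7626 with 600 CPM and 17 and 15 of 2805 after thinning. With 200 UMIs per gene they were 6 and 6 of 3964, and with 1 UMI 581 and 597 of 13491. Among the settings chosen after seeing the data they were 58 and 15 of 5266 in the class II high range. Without the top barcode of each gene they were 21 and 23 of 7735. The higher count was 61 with equal weight for every barcode and 21 with a pseudocount of 5. The lower count was 21 of 7409 genes with 6 UMIs and 27 of 2962 without barcodes holding 2 UMIs of other types. It was 18 of 7625 without those holding 10 UMIs and 23 of 6815 with Ly6c2 or Chil3 required.

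List medians moved as follows. With 6 UMIs the stress list was at 0.044 and Nos2, alone in the nitric oxide list, at -0.042. With cancer-cell RNA under 150 CPM the inflammatory list was at 0.27 and phagocytosis at 0.17. Without barcodes holding 2 UMIs of other types, transcription factors were at -0.20, alternative activation at 0.020, interferon-gamma at 0.67, hypoxia at -0.086 and lipid handling at -0.41. The MIF list was at -0.074 with Ly6c2 or Chil3 required. In the class II low range MHC class II was at 0.23, MIF at 0.17 and stress at 0.11; in the high range the inflammatory list was at 0.26 and type I interferon at -0.10. After thinning MIF was at 0.16 and stress at 0.14.

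Among genes past 2-fold, signs turned in collagen and other stromal genes, in hemoglobin genes and in Lpl, Saa3, Ccr7, F3 and Gpnmb. With 600 CPM, Col1a1 was at 0.66, Col1a2 1.26, Col3a1 0.35, Cpxm1 0.77 and Postn 2.19. With 6 UMIs, Col1a1 was at 0.61, Col1a2 1.27, Col3a1 0.31, Lpl 0.041, Cpxm1 0.36 and Postn 2.27. With cancer-cell RNA under 150 CPM, Ccr7 was at 0.29 and Hbb-bt at 0.060. Without barcodes holding 2 UMIs of other types, Col1a2 was at 1.37, Hba-a1 0.79, F3 -0.21 and Cpxm1 1.79. Without those holding 10, Col1a1 was at 0.25, Col1a2 0.72, Col3a1 0.060, Cpxm1 0.79 and Postn 0.81. With Ly6c2 or Chil3 required, Col1a1 was at 0.26, Col1a2 0.29, Col3a1 0.046, Cpxm1 0.22 and Postn 0.96. In the class II low range Dcn was at -0.59 and Igfbp7 at -0.57. In the high range Gpnmb was at -0.66, Col1a1 1.38, Col1a2 1.64, Col3a1 0.61, Lpl 1.25, Cpxm1 1.99, Saa3 2.31 and Postn 2.13. After thinning Col1a1 was at 0.87, Col1a2 0.67, Col3a1 0.14, Hbb-bs 0.61, Lpl 0.87 and Postn 2.29, and with equal weight Col3a1 was at 0.032. Without the top barcodes Col1a1 was at 0.33, Col1a2 0.53, Col3a1 0.094, Cpxm1 0.80 and Postn 0.86.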
